A study of Mus musculus with 8 samples.

Results

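Head-to-head promoters of coding genes were examined in mouse embryonic stem cells (mESCs). Here a head-to-head pair was a pair of CAGE clusters on opposite strands, each at the start of a protein-coding gene, from which transcription ran away from the other cluster. The dominant TSS of each cluster, the base with the most capped 5' ends, had to lie within 500 bp of the 5'-most annotated start of a coding gene on its own strand, the minus-strand TSS had to lie at the lower coordinate, and the TSSs had to be at most 1000 bp apart. By this rule 1864 of the 32857 clusters called in wild-type E14 cells (5.67%) were members, 926 on the minus and 938 on the plus strand. They formed 1336 cluster pairs between 667 gene pairs, and 350 gene pairs had a single cluster pair. Of the 9746 coding genes with a start cluster in E14, 1331 (13.7%) were in a head-to-head pair.

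In mammals many genes are arranged head to head and share the stretch of DNA between their starts, usually a CpG island without a TATA box. The shared stretch can recruit a pair of RNA polymerase II complexes that leave in opposite directions, and such arrangements are known for genes of DNA repair, chaperones, mitochondrial functions and histones. CAGE reads the first base of capped RNA, so it places the start of each partner on its own strand. CAGE clusters are described as sharp when most starts fall on a few bases and as broad when they spread over a longer stretch, and broad clusters are typical of CpG island promoters.

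E14 is a mouse embryonic stem cell line, and clones A1 and C7 are E14 cells lacking both PWWP2A and PWWP2B, a reader of H3K36me3 and its paralog that form a histone deacetylase complex (*Pwwp2a/b* DKO). All cells were grown undifferentiated in serum and LIF on gelatine. Nuclear RNA was sequenced from 3 E14, 2 A1 and 3 C7 libraries, and the knockout genotype is represented by these 2 clones only. The deposited clusters were called on the merged libraries of each line, so each line is 1 set of clusters, no spread between replicates could be computed, and no p-value is given. The comparison of each clone with E14 asked whether the start sites of these gene pairs differed without PWWP2A/B. Both comparisons use the same E14 clusters, so their values are given side by side. The lines had 32857 (E14), 33005 (A1) and 32870 (C7) clusters. Their number of reads per cluster was not used here and the depth behind a cluster is unknown. Of 9 core pluripotency genes, 8 had a start cluster in E14. *Pwwp2a* had 1 start cluster in each of the 3 lines and *Pwwp2b* had 0 in each, so cluster positions do not check the knockout.

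Sequences between partners are shown for 5 of the well-known and closest pairs, to make visible how short the shared stretch is and which common promoter motifs it holds. The other pairs considered had overlapping annotated starts or bases not used here. The sequences are read on the plus strand of mm10 (GRCm38), from RefSeq promoters and GENCODE transcripts, and span the dominant TSSs and up to 20 bases beyond, cut to at most 30 bases past an annotated start. Capitals mark matches on either strand to the 6 motifs searched, which are TATAAA for the box of that name, CCAAT likewise, GGGCGG for the GC box, CCGGAAG for the core bound by ETS factors, AAGATGGC for YY1 and GCATGCGC for NRF1.
Atm/Npat, chr9:53536785-53537067: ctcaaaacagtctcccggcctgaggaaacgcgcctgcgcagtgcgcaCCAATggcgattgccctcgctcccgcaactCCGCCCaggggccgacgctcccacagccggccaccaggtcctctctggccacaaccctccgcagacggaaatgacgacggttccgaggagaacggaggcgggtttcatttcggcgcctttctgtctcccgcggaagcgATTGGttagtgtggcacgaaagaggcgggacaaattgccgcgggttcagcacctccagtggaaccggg
Ndufaf2/Ercc8, chr13:108158596-108158758: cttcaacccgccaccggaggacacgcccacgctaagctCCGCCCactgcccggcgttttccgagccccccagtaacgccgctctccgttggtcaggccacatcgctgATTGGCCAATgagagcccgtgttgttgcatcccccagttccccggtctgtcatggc
Gart/Son, chr16:91646943-91647118: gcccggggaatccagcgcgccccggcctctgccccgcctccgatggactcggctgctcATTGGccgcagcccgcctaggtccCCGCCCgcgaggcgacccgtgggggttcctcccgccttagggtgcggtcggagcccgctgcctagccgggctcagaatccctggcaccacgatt
Tmtc3/Cep290, chr10:100487325-100487587: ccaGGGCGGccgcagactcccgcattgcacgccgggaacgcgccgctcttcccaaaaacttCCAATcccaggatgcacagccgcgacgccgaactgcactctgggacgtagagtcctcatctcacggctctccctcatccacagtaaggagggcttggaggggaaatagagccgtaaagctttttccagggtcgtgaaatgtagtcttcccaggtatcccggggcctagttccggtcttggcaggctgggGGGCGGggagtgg
Dhx38/Txnl4b, chr8:109565842-109565893: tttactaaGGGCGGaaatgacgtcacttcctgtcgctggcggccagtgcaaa

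In the *Atm*/*Npat* sequence the minus-strand TSS of *Atm*, the kinase that signals DNA breaks, is base 21, and the plus-strand TSS of *Npat*, a coactivator of histone genes, is base 263. The stretch held a CCAAT box on each strand, at bases 48 and 216, and a GC box at base 78. The *Ercc8* TSS is base 143 of its sequence, and the TSS of *Ndufaf2*, an assembly factor of respiratory complex I, lies 5 bases before the first base. There the CCAAT box of the minus strand, at base 108, was directly followed by that of the plus strand, at base 113. The *Son* TSS is base 156, and the TSS of *Gart*, an enzyme of purine synthesis, lies 18 bases before the first base. A match to the ETS core, 8 bp from the *Gart* TSS, lies in the stretch not printed. The TSS of *Tmtc3* is base 21 and that of *Cep290*, a protein of the ciliary base, lies 32 bases after the last base. In *Dhx38*/*Txnl4b*, a splicing helicase and a thioredoxin-like protein, the TSSs are bases 21 and 32, so 11 bp separated transcripts running in opposite directions, and the GC box lay outside them, at base 9. No match to TATAAA was found in these 5 sequences.

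The rule kept only dominant TSSs at most 1000 bp apart, so distances are capped by it, and most of the 667 gene pairs lay well below this limit. Where a gene pair had several cluster pairs, the closest is the smallest of several distances, so the values per gene pair are low by choice. Taking the closest cluster pair of each gene pair, the median distance was 160 bp (95% interval 148 to 173), the middle 50% of gene pairs lay between 97 and 254 bp, and the range was 9 to 988 bp. In 176 gene pairs (26.4%) the TSSs were at most 100 bp apart, and in 534 (80.1%) at most 300 bp. Only 27 gene pairs (4.05%) were within 50 bp, and 33 (4.95%) were over 500 bp apart. Over every cluster pair, which includes the further clusters of a gene, the median was 233 bp (219 to 248). The intervals of medians are exact binomial order-statistic intervals and those of shares are Wilson intervals, and both cover counting error only.

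**Figure D1:**
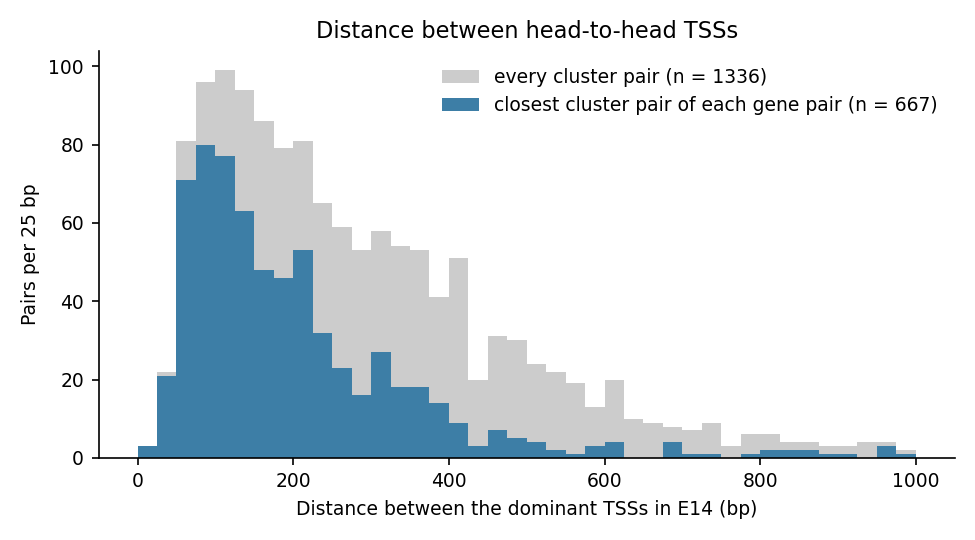
Number of cluster pairs (y axis, per 25 bp) by the distance between the dominant TSSs in E14 (x axis, bp), for every cluster pair (grey, 1336) and for the closest cluster pair of each gene pair (blue, 667). Of the closest pairs, 534 lie at or below 300 bp and 33 beyond 500 bp.

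The clusters themselves rarely met. A median of 96 bp (86 to 109) lay between the facing ends of partner clusters, and in 20 gene pairs (3.00%) the clusters of opposite strands overlapped. Annotated 5'-most starts were a median of 80 bp apart (74 to 89) and overlapped in 155 gene pairs (23.2%). The rule kept only pairs whose dominant TSSs do not cross and set no such limit on annotated starts. The larger spacing by CAGE is therefore partly fixed by the rule. The dominant TSS lay a median of 28 bp downstream of the annotated start on either strand (24 to 33 for minus, 25 to 33 for plus), and both TSSs were downstream of their annotated starts in 399 gene pairs (59.8%). Over all member clusters the median offset was 41 bp (37 to 44), and over the other coding starts 36 bp (34 to 37).

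Of 14 gene pairs known as divergent pairs and listed by name, 11 met the rule. Their values are those of the closest cluster pair of each gene pair. The mitochondrial chaperonin genes *Hspd1* (Hsp60) and *Hspe1* (Hsp10), on chromosome 1 at 55088243 and 55088319, were 76 bp apart, with interquantile widths of 33 and 59 bp. Interquantile width is the stretch between the 10% and 90% points of a cluster's starts, and widths of clusters given below are interquantile widths. *Ppat*/*Paics*, enzymes of purine synthesis, were 75 bp apart, *Surf1*/*Surf2* of the surfeit locus 72 bp and *Ranbp1*/*Trmt2a* 84 bp. *Gart*/*Son* were 173 bp, *Ndufaf2*/*Ercc8* 147 bp and *Col4a1*/*Col4a2*, which encode chains of collagen IV, 129 bp apart. *Atm*/*Npat* (242 bp), *Tmtc3*/*Cep290* (274 bp) and the replication helicase gene *Mcm4* with *Prkdc*, the DNA-dependent protein kinase (275 bp), were the most widely spaced of the 11. *Brca1*/*Nbr1*, *Tap1*/*Psmb9* and *Tk1*/*Afmid* did not meet the rule, since *Nbr1*, *Tap1*, *Psmb9* and *Afmid* each had 0 start clusters in E14.

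In 8 of these 11 pairs both TSSs were at the same base in E14, A1 and C7. Over all gene pairs neither TSS differed from E14 in 65.4% in A1 and in 69.4% in C7, each clone taken alone. *Hspd1*/*Hspe1*, *Ranbp1*/*Trmt2a*, *Surf1*/*Surf2*, *Atm*/*Npat*, *Gart*/*Son*, *Mcm4*/*Prkdc*, *Col4a1*/*Col4a2* and *Ndufaf2*/*Ercc8* kept the distances given above in each line. *Ppat*/*Paics* was 75 bp in E14 and A1 and 98 bp in C7, from a shift of the *Ppat* TSS by 23 bp, and *Tmtc3*/*Cep290* was 274, 270 and 275 bp. Interquantile widths moved without the TSS in *Col4a1*, at 5 bp in E14, 28 bp in A1 and 29 bp in C7, and in *Son*, at 54, 36 and 36 bp.

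The closest gene pair was *Rpl35*/*Arpc5l*, a ribosomal protein gene and a gene of the Arp2/3 actin complex, 9 bp apart on chromosome 2, with narrow clusters of 9 and 3 bp. It was 9 bp apart in A1 and 1 bp in C7, where the *Rpl35* TSS lay 8 bp upstream. This was the closest of 4 cluster pairs of these genes. Its E14 TSSs were at 39005262 and 39005271, while the annotated starts are at 39005624 (*Rpl35*) and 39005348 (*Arpc5l*). A closest cluster pair need not join the main starts of its genes, since the level of each cluster is unknown here. *Dhx38*/*Txnl4b* followed at 11 bp, and *mt-Nd6*/*mt-Cytb* at 17 bp and *Hnrnpd*/*4930524J08Rik* at 28 bp were also among the 5 closest. *mt-Nd6*/*mt-Cytb* was the single pair of the mitochondrial genome, whose long transcripts are made from both strands and cut into genes, and it held 13 cluster pairs, the most of any gene pair. Its minus-strand cluster had an interquantile width of 719 bp. At the other end, *Smim7*/*Tmem38a* were 988 bp apart, the heme synthesis gene *Urod* and *Hectd3* 972 bp, *Mrpl41*/*Pnpla7* 969 bp and *Zbtb25*/*Zbtb1* 962 bp. Just beyond the limit of 1000 bp were *Btf3l4*/*Txndc12* (1008 bp), *Dirc2*/*Hspbap1* (1021 bp) and *Sgsm2*/*Tsr1* (1025 bp).

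Member clusters were broad. Their median interquantile width in E14 was 27 bp (26 to 28, n = 1864), against 23 bp (22 to 23, n = 11993) at the other coding gene starts and 12 bp (12 to 13) over all E14 clusters. At most 10 bp wide, called sharp here, were 21.4% of members (19.6 to 23.3) and 29.8% of other coding starts (29.0 to 30.6). Some of the other starts had an opposite-strand cluster upstream within 1000 bp that was not at a coding gene start. These 1732 clusters had a median width of 24.5 bp (23 to 26) and 27.7% were sharp (25.6 to 29.8). The member median was above that of the other coding starts on 16 of 20 chromosomes and equal on 2. It was above that of the other coding starts with an opposite-strand cluster on 14 of 20. Clusters of 1 line are not replicates, so these intervals cover counting error only and the difference has no replicate check.

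**Figure D2:**
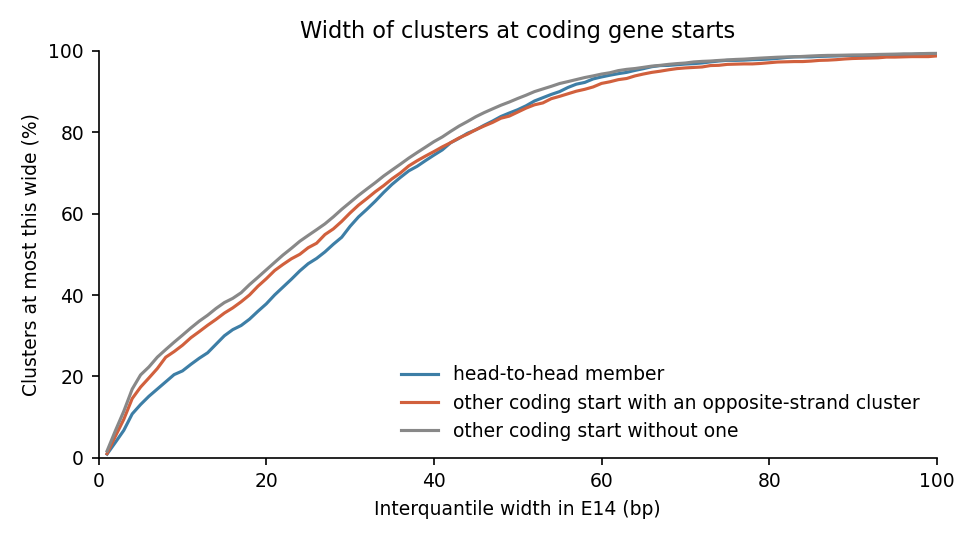
Cumulative share of clusters (y axis, %) with at most a given interquantile width in E14 (x axis, bp, up to 100), for head-to-head members (blue), other coding starts with an opposite-strand cluster upstream (red) and other coding starts without one (grey). The member curve runs lowest over narrow widths, with 21.4% at or below 10 bp, and the curves come together at the wide end.

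Widths were alike over most distances and lower in the closest pairs. Clusters of pairs within 50 bp had a median width of 17.5 bp (13 to 26, 54 clusters) and 33.3% were sharp, while those of pairs 50 to 100 bp apart had 29 bp (26 to 31) and 12.8%, and those 500 to 1000 bp apart 35 bp (24 to 41) and 16.7%. The width of a cluster said little about that of its partner. Over the 667 closest cluster pairs Spearman's rho between minus-strand and plus-strand width was 0.040 in E14, and it was 0.042 in A1 (662 pairs) and 0.037 in C7 (666 pairs). These are descriptions across promoters of merged libraries. Both partners were sharp in 29 gene pairs (4.35%), 1 partner was sharp in 153 (22.9%) and neither in 485 (72.7%).

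The widest pair by summed width after *mt-Nd6*/*mt-Cytb* was *St5*/*Akip1*, at 36 and 180 bp in E14, 37 and 220 bp in A1 and 36 and 208 bp in C7. *Chchd4*/*Tmem43* (94 and 72 bp), where *Chchd4* encodes the import receptor of the mitochondrial intermembrane space, *Pdxdc1*/*Mpv17l* (133 and 25 bp) and *Abce1*/*Anapc10* (41 and 116 bp) came next. The narrowest pair was *Hist1h2ah*/*Hist1h2bk*, with 3 and 1 bp in E14 and 3 and 2 bp in each clone. *Slc39a7*/*Rxrb*, a zinc transporter and a retinoid X receptor, had 3 bp on each side in each of the 3 lines. These clusters were 31 bp apart and the closest of 5 cluster pairs of the 2 genes. Their TSSs were at 34032052 and 34032083, while the annotated starts are at 34031682 (*Slc39a7*) and 34031812 (*Rxrb*). *Sbds*/*Tyw1* (1 and 6 bp), *Fam228b*/*Pfn4* (4 and 3 bp) and *Mastl*/*Yme1l1* (3 and 4 bp) completed the 5 narrowest. In both clones the distances of these narrow pairs were those of E14 except for *Mastl*/*Yme1l1* in A1 (117 bp in E14, 119 bp in A1). Of all gene pairs, 65.4% in A1 and 69.4% in C7 had the E14 distance.

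The gene lists differed in how often their members sat head to head, beside 13.7% of all coding genes with a start cluster. No enrichment was tested, the lists were chosen by symbol with earlier results of these data known, and genes that neighbour each other are not independent. Genes of the Hist1 to Hist4 clusters, most of which encode replication-dependent histones, had 20 of 58 genes in a pair (34.5%, interval 23.6 to 47.3), all within 10 pairs of an H2A with an H2B gene. DNA repair genes had 30 of 81 (37.0%, 27.3 to 47.9), complex I subunits and assembly factors 15 of 44 (34.1%, 21.9 to 48.9), mitochondrial ribosomal proteins 21 of 69 (30.4%, 20.8 to 42.1) and RNA polymerase subunits 8 of 27 (29.6%, 15.9 to 48.5). The intervals of aminoacyl-tRNA synthetases (9 of 36), replication licensing (8 of 39), the proteasome (7 of 39) and cytosolic ribosomal proteins (15 of 87) ran from 8.98% to 41.1% together, and these shares from 17.2% to 25%. Zinc finger genes named Zfp, many of them in clusters of copies, had 15 of 292 (5.14%, 3.14 to 8.30). Of the PWWP2 and NuRD genes 1 of 14 was in a pair, *Rbbp4*, and of the core pluripotency factors 0 of 8, which allows a share of up to 37.5% by the rule of 3 counts over the total (Wilson upper limit 32.4%).

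**Figure D3:**
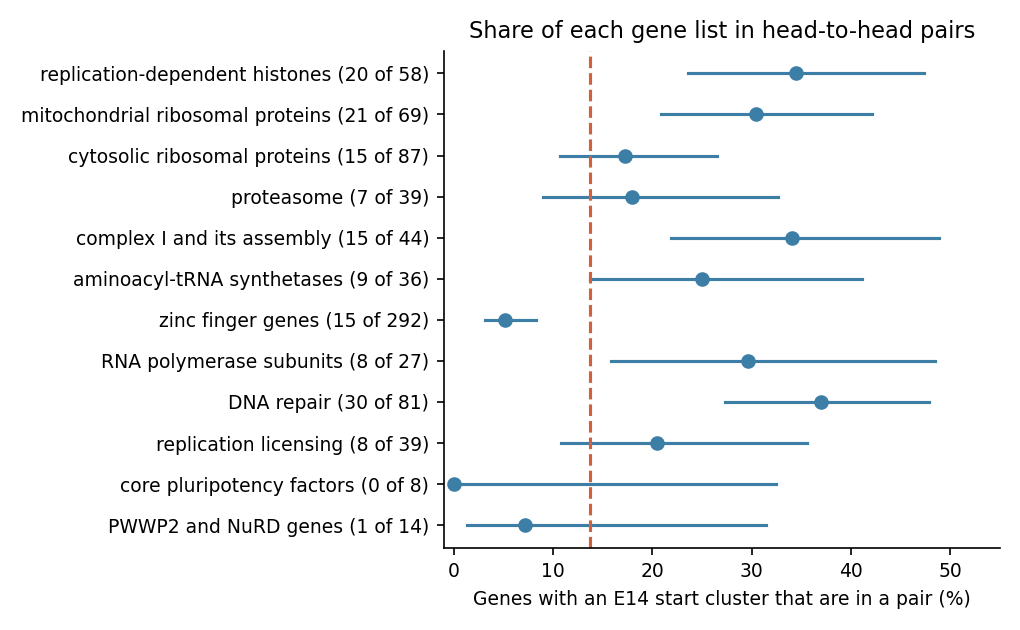
Share of the genes of each list that were in a head-to-head pair (x axis, % of genes with an E14 start cluster), with 95% Wilson intervals as lines and counts in the labels. The dashed line marks 13.7%, the share over all coding genes. The intervals of histones, mitochondrial ribosomal proteins, complex I, RNA polymerase, DNA repair and, barely, the tRNA synthetases lie above it and that of the zinc finger genes below it.

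The histone pairs had a narrow range of distances. Their distances ran from 123 bp (*Hist1h2ac*/*Hist1h2bc*) to 243 bp (*Hist1h2ah*/*Hist1h2bk*), with a median of 211.5 bp, and 15 of the 20 clusters were sharp. *Hist1h2ad*, an H2A gene, was 139 bp from *Hist1h2bf*, and *Hist1h2aa* 217 bp from *Hist1h2ba*. In 7 of the 10 pairs the distance was the same in A1 as in E14, and in 7 in C7, beside 65.4% and 69.4% of all gene pairs. The others differed by -16 to 5 bp. Histone genes are near-identical copies and the authors kept uniquely mapped reads, so the placement of single histone TSSs is uncertain. Histone clusters outside pairs had the same median width of 5 bp as those in pairs.

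Cytosolic ribosomal protein genes start at a fixed cytosine in a run of pyrimidines, and their pairs were uneven. The clusters of the 15 genes of this list had a median width of 8 bp and 9 were sharp, while those of their partners had a median of 29 bp and 3 were sharp. Start clusters of the list's genes outside pairs were narrow too, with a median of 10 bp and 78 of 149 sharp, so narrow clusters were not particular to the pairs. *Rps28*, at 4 bp, faced the complex I gene *Ndufa7*, at 31 bp, over 108 bp, and *Rps24*, at 5 bp, faced *Polr3a*, at 54 bp, over 168 bp. The ribosomal gene was the wider partner in 4 pairs, *Lrsam1*/*Rpl12* (2 and 35 bp), *Zwilch*/*Rpl4* (19 and 34 bp), *Rpl36al*/*Mgat2* (23 and 6 bp) and *Rpl35*/*Arpc5l*, and *Iqcg*/*Rpl35a*, 105 bp apart, had 19 bp on each side. *Rpl15* was 171 bp from *Nkiras1*. The list was drawn by symbol, so it holds *Rps6kb1*, which encodes a kinase of ribosomal protein S6 and not a ribosomal protein, and its cluster was 11 bp wide.

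Mitochondrial ribosomal protein clusters had a median width of 26 bp and ranged from 14 to 48 bp, with distances from 62 to 969 bp. In *Mrpl46*/*Mrps11* both partners encode proteins of this ribosome, 108 bp apart. *Mrpl13*/*Mtbp* (97 bp), *Mrpl2*/*Klc4* (221 bp), *Mrpl21*/*Ighmbp2* (78 bp) and *Mrpl27*/*Eme1* (63 bp) joined them to other functions. In A1 the distance between *Mrpl21* and *Ighmbp2* decreased by 45 bp. Among complex I genes, *Ndufa1*/*Rnf113a1* were 97 bp, *Ndufa11*/*Vmac* 124 bp, *Ndufa2*/*Ik* 165 bp and *Ndufa4*/*Phf14* 399 bp apart, and 11 of 15 pairs in A1 and 13 of 15 in C7 had the E14 distance. Of the DNA repair pairs, *Apex1*/*Osgep* (188 bp), with the base excision repair endonuclease, *Fancb*/*Mospd2* (373 bp), *Atm*/*Npat* and *Ercc8*/*Ndufaf2* kept their distances in both clones. In all, 24 of 30 kept it in A1 and 23 of 30 in C7. Over all gene pairs 65.4% kept the distance in A1 and 69.4% in C7. Other lists with over 1 pair ran from 3 of 8 in A1 and 4 of 8 in C7 (replication licensing) to 7 of 7 and 6 of 7 (proteasome).

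*Hars* and *Hars2*, the cytosolic and mitochondrial histidyl-tRNA synthetases, faced each other over 140 bp, and *Ears2*/*Ubfd1* (128 bp) and *Fars2*/*Lyrm4* (91 bp) were further synthetase pairs. The proteasome gene *Psma2* faced *Mrpl32* over 220 bp, *Psma7* faced *Ss18l1* over 307 bp, *Psmc5* faced *Ftsj3* over 62 bp and *Psmd10* faced *Atg4a* over 217 bp. RNA polymerase genes included *Polr1a*/*Ptcd3* (308 bp), *Polr1c*/*Yipf3* (128 bp), *Polr2b*/*Noa1* (121 bp) and *Polr2l*/*Tspan4* (105 bp). In replication licensing, *Mcm8*/*Trmt6* (128 bp), *Orc1*/*Prpf38a* (159 bp) and *Orc3*/*Rars2* (61 bp) joined *Mcm4*/*Prkdc*. Zinc finger genes in pairs included *Zfp142*/*Bcs1l* (291 bp), *Zfp189*/*Mrpl50* (207 bp), *Zfp276*/*Vps9d1* (162 bp) and *Zfp277*/*Dock4* (232 bp). *Rbbp4*, a histone-binding subunit of NuRD and of the PWWP2A complex, faced *Zbtb8os* over 210 bp, with 9 and 36 bp, and was 8 bp farther from it in both clones.

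The bases at the dominant TSS were those of mammalian initiators. A pyrimidine before the start and a purine at it were found at 82.2% of member TSSs (80.4 to 83.9, n = 1798 with reference bases) and at 79.9% of other coding starts (79.2 to 80.7). CA was the most frequent of these steps, at 31.9% of members and 34.9% of others. From 50 bp before to 20 bp after the TSS, the median GC content was 64.8% (64.8 to 66.2) in members and 69.0% (67.6 to 69.0) in others, and the ratio of observed to expected CpG was 0.947 (0.928 to 0.957) and 0.917 (0.910 to 0.924). The other coding starts with an opposite-strand cluster had a GC content of 67.6% and a higher CpG ratio of 0.963 (0.947 to 0.982). Reference bases covered 91.5% of member windows and 81.2% of the others.

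In RefSeq promoters, 250 bases before to 50 after the annotated start, the ETS core CCGGAAG was in 32.4% of promoters of genes in head-to-head pairs (29.7 to 35.2, n = 1117 matched of 1307) and in 19.8% of those of other coding genes with a start cluster (18.9 to 20.8, n = 6684). Over all 32851 promoters of the table it was in 8.86%. The YY1 motif AAGATGGC was in 9.13%, 5.04% and 2.75% of these sets, and the TATA box TATAAA in 4.57%, 6.94% and 13.6%. GGGCGG (69.3%, 70.2% and 35.7%), CCAAT (43.1%, 40.8% and 37.4%) and GCATGCGC (5.998%, 6.82% and 2.71%) had intervals that overlapped between the genes in pairs and the other coding genes. The TATAAA and AAGATGGC intervals did not overlap between them. Searches were on both strands, no motif contains another, and a window of this length reaches the partner's TSS in many pairs, since 496 of 667 gene pairs (74.4%) were at most 250 bp apart. The same site can thus be counted for both genes of a pair. The intervals treat these genes as independent, so they can be too narrow for the genes in pairs. In the shorter window from 50 bp before to 20 bp after the dominant TSS, the ETS core was in 15.5% of members (13.9 to 17.3) and 10.1% of other coding starts (9.55 to 10.7), CCAAT in 10.7% and 8.08%, GGGCGG in 31.3% and 36.7% and TATAAA in 1.35% and 2.18%. AAGATGGC was in 2.82% and 2.75% there. The other coding starts with an opposite-strand cluster had the ETS core in 11.6% (10.1 to 13.3), CCAAT in 8.13% and GGGCGG in 35.3%.

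Between the dominant TSSs of the 566 gene pairs with reference bases throughout, GGGCGG was found in 338 (59.7%), CCAAT in 225 (39.8%), CCGGAAG in 168 (29.7%), GCATGCGC in 37 (6.54%), TATAAA in 18 (3.18%) and AAGATGGC in 4 (0.707%). These stretches differ in length, and no stretches of matched length at other coding starts were searched, so whether the shares are particular to pairs was not tested. In 78 gene pairs (13.8%) none of the 6 motifs was found, which says only that these letters are not in this stretch. The median GC content of the stretch was 64.3%.

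Almost every member cluster was also called in the *Pwwp2a/b* DKO clones. By the same rule A1 had 1331 cluster pairs and C7 1334, each with 666 gene pairs, and 663 gene pairs were found in all 3 lines. *Capza1*/*St7l* met the rule in both clones and not in E14, *Gm43720*/*Stag3* in C7 only, *Tmem129*/*Tacc3* in E14 only, *Gpc2*/*Stag3* and *Mrpl41*/*Pnpla7* in E14 and A1, and *Polr3g*/*Mblac2* in E14 and C7. A cluster takes the name of its nearest coding gene. Whether *Gpc2*/*Stag3* and *Gm43720*/*Stag3* are the same clusters under different names was not tested. *Mrpl41*/*Pnpla7* was 969 bp apart in E14 and A1 and 1009 bp in C7, so it crossed the limit of 1000 bp by a shift of the *Pnpla7* TSS of 40 bp. Of the 1864 member clusters, 5 (0.268%) had no overlapping cluster in A1, where 0.709% of all E14 clusters had none, and 0 had none in C7, which allows a share of up to 0.161% by the rule of 3 counts over the total (Wilson upper limit 0.206%), where 0.749% of all E14 clusters had none. The shares over the other coding starts were 0.442% and 0.450%.

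Of the 5 clusters without a counterpart in A1, 4 were narrow. *Atg9a*/*Ankzf1*, around an autophagy lipid scramblase gene, lacked an *Atg9a* cluster of 8 bp, which took part in 2 cluster pairs of 454 and 735 bp. *Polr3g*/*Mblac2* lacked the *Mblac2* cluster of 3 bp, *Miip*/*Fv1* the *Fv1* cluster of 9 bp and *Ears2*/*Ubfd1* the *Ubfd1* cluster of 1 bp. The broad exception was *Atp5h*/*Kctd2*, which lacked the *Kctd2* cluster of 27 bp. All 5 had an overlapping cluster in C7.

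Dominant TSSs stayed at the same base in most members. The TSS was at another base in 369 of 1856 members in A1 (19.9%, 18.1 to 21.8) and in 327 of 1862 in C7 (17.6%, 15.9 to 19.4), beside 23.8% and 21.2% of all E14 clusters and 20.9% and 18.6% of the other coding starts. Where it differed, the median shift was 9 bp in each clone. In A1 188 TSSs (10.1%) lay farther upstream, towards the partner, and 181 (9.75%) farther downstream, beside 11.7% and 12% of all E14 clusters. In C7 146 (7.84%) lay upstream and 181 (9.72%) downstream, beside 10.1% and 11% of all E14 clusters. Among members at most 10 bp wide the TSS differed in 22.3% (18.5 to 26.7) in A1 and 18.1% (14.6 to 22.2) in C7, and among those over 60 bp wide in 25% (18.1 to 33.4) and 20.2% (13.9 to 28.3), so the intervals overlapped. Members over 10 and up to 30 bp wide had 19.8% and 17.7%, and those over 30 and up to 60 bp 17.6% and 16.7%. For the other coding starts the shares were 21.0% and 18.3% at most 10 bp wide and 19.9% and 18.7% over 60 bp wide.

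More members had a wider than a narrower interquantile region in the clones. In A1 it was wider in 29.9% of members and narrower in 12.4%, and in C7 wider in 28.7% and narrower in 14.6%. Over all E14 clusters it was wider in 20.3% and narrower in 10.5% in A1, and wider in 18.5% and narrower in 10.6% in C7. The other coding starts with an opposite-strand cluster, which are closer to members in width, had 31.5% wider and 12.7% narrower in A1 and 29.5% and 13.3% in C7. Changes of over 10 bp were few. In A1 69 members (3.72%) were wider and 25 (1.35%) narrower by this much, near the 3.11% and 1.63% of all E14 clusters. In C7 60 (3.22%) were wider and 35 (1.88%) narrower, beside 2.8% and 1.62% of all E14 clusters. A difference between merged libraries has no replicate check, and A1 was built from 2 libraries where the other lines had 3.

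The distance between partners was the same in E14 and the clone in 433 of 662 gene pairs in A1 (65.4%, 61.7 to 68.9) and in 462 of 666 in C7 (69.4%, 65.8 to 72.8). In A1 111 gene pairs were farther apart and 118 closer, and in C7 114 and 90. Among those that differed the median size was 10 bp in A1 and 11 bp in C7, and differences of over 50 bp were found in 10 gene pairs in A1 and 3 in C7. Usually 1 partner accounted for the change: the minus TSS alone differed in 97, the plus TSS alone in 101 and both in 31 gene pairs in A1, and 83, 94 and 27 in C7. Where the minus TSS differed, the plus TSS differed in 24.2% (17.6 to 32.3) in A1 and 24.5% (17.5 to 33.4) in C7, and where the minus TSS was at the same base in 18.9% (15.8 to 22.5) and 16.9% (14.02 to 20.2), so the intervals overlapped.

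**Figure D4:**
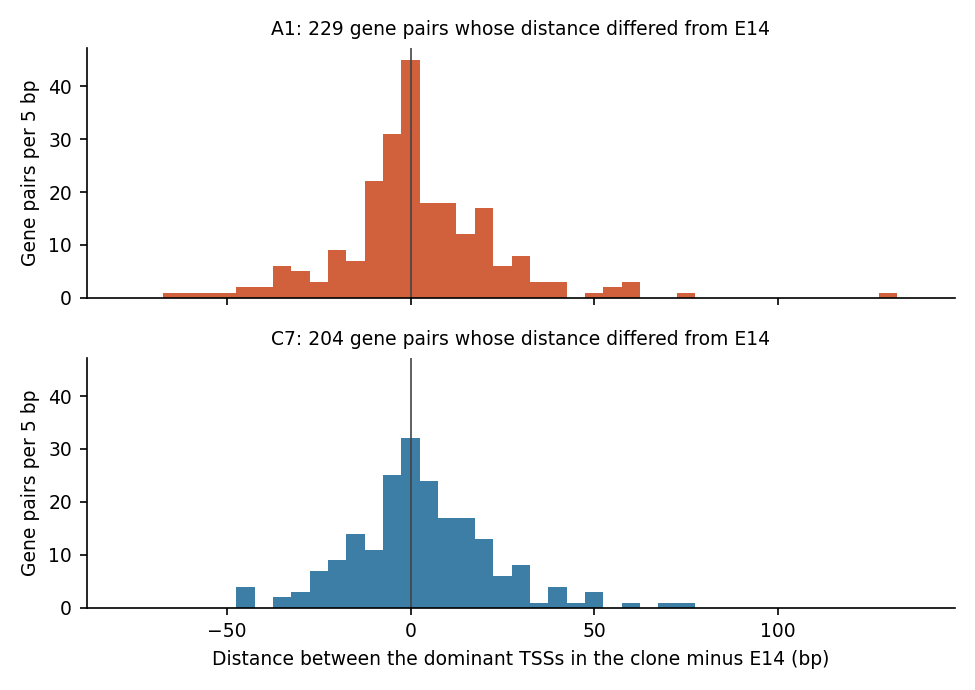
Number of gene pairs (y axis, per 5 bp) by the distance between the dominant TSSs in A1 (top) or C7 (bottom) minus that in E14 (x axis, bp), for the closest cluster pairs whose distance differed, 229 in A1 and 204 in C7. Differences of over 50 bp are found in 10 gene pairs in A1 and 3 in C7, and the largest is 131 bp in A1.

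The largest increase, 131 bp in A1, was in *Pdxdc1*/*Mpv17l*, 65 bp apart in E14 and C7 and 196 bp in A1. Its *Pdxdc1* interquantile region was 133 bp wide in E14, 134 bp in C7 and 1 bp in A1. The A1 TSS of *Pdxdc1*, at 13902975, lay at the edge of the E14 cluster, which ran from 13902974 to 13903135. A match needed an overlap of only 1 bp. Whether the start shifted or the cluster was called differently was not tested. Among the 10 gene pairs that changed most in the same direction in both clones, ranked by the smaller change, *Eif2b4*/*Snx17* came first. *Eif2b4*, which encodes a subunit of the translation factor eIF2B, had its TSS at 31193112 on chromosome 5 in E14 and at 31193036 in both clones, which took the distance from 185 to 261 bp, while the TSS of *Snx17*, a sorting nexin, stayed at 31193297. *Ewsr1*/*Rhbdd3*, with an RNA-binding protein of the FET family, went from 313 to 371 bp by a shift of the *Rhbdd3* TSS, from 5099380 to 5099438 on chromosome 11 in both clones. *Rpa3*/*Gm45062*, with a subunit of the single-strand binding protein RPA, went from 247 to 297 bp in both clones, *Gm45785*/*Ric8a* from 219 to 260 bp and *Slc35a5*/*Atg3*, with an enzyme of autophagy, from 99 to 138 bp.

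In 5 of the 10 the clones differed from each other in size. *S100pbp*/*Yars* was 290 bp in E14, 335 bp in A1 and 391 bp in C7, for a cluster pair that is not the closest of these genes, as is also the case for *Ewsr1*/*Rhbdd3*, *Slc35a5*/*Atg3* and *Trak2*/*Stradb*. *Dhx57*/*Morn2* was 79, 119 and 122 bp, and *Trak2*/*Stradb*, with a pseudokinase partner of LKB1, 244, 280 and 295 bp. Partners came closer in *Tcf19*/*Cchcr1*, at 457, 415 and 412 bp, and in *Erp44*/*Invs*, with an endoplasmic reticulum chaperone, at 275, 238 and 231 bp. In 8 of the 10 pairs the TSSs were farther apart in the clones. The pairs were picked for these differences, so their sizes are a description with no test, and the clones share the E14 clusters they are set against. Widths of these promoters in E14 ran from 23 bp (*Ric8a*) to 102 bp (*Rhbdd3*), and each shift took place within a cluster that overlapped the E14 cluster.

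**Figure D5:**
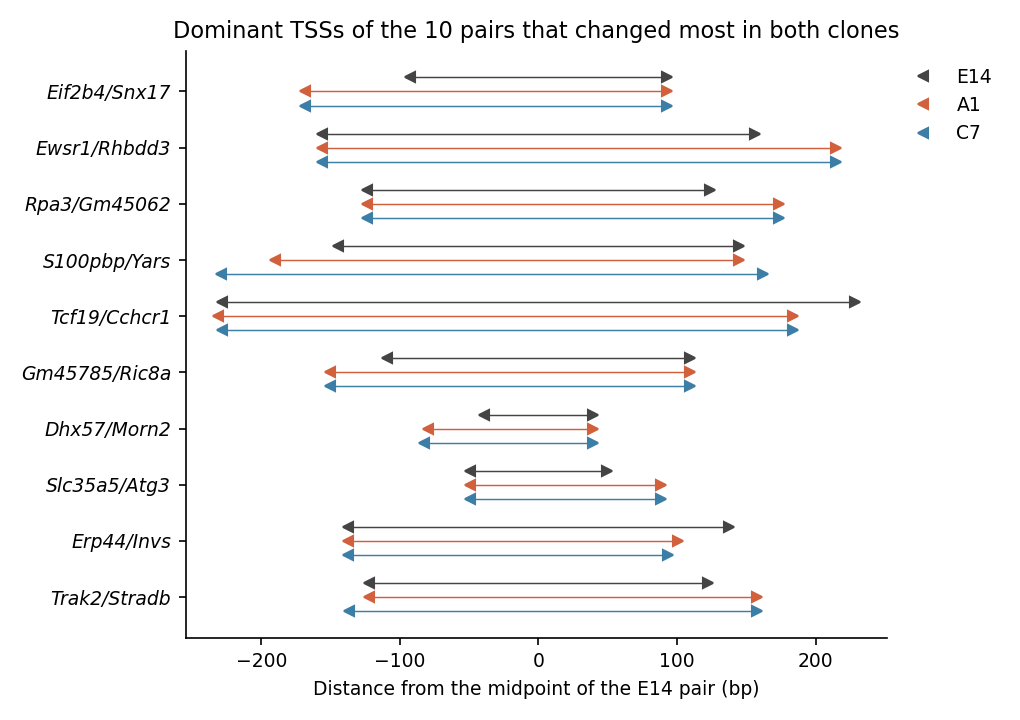
Dominant TSSs of the 10 gene pairs whose distance changed most in both clones, as distance from the midpoint of the E14 pair (x axis, bp), with left-pointing triangles for the minus-strand and right-pointing triangles for the plus-strand TSS in E14 (grey), A1 (red) and C7 (blue). In *Eif2b4*/*Snx17* only the left TSS differs between E14 and the clones, and in *Ewsr1*/*Rhbdd3* only the right one.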

How the data were processed

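CAGE-seq of nuclear RNA was made from 3 E14, 2 A1 and 3 C7 libraries of mESCs. The authors demultiplexed the reads, aligned them to mm10 with STAR (2.4.2a), kept uniquely mapped reads, normalized tags to a power law and clustered them with CAGEr after merging the libraries of each line. SAMtools (1.3) and bedtools (2.17.0) are also named in the submitters' processing notes. The deposited file lists, for each line, cluster positions, strand, the dominant TSS and the interquantile region (quantiles 0.1 to 0.9). Every deposited score was 0, so no level or depth per cluster entered, and the libraries' own depth was not used here. Replicates of a line were merged by the authors, so no test was made and intervals (95%, Wilson or exact order-statistic) cover counting error only.

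Clusters were assigned to coding genes by the 5'-most start in GENCODE vM21, and a pair was formed by the rule in the report. The comparator was every other cluster within 500 bp of such a start. A cluster was matched to a clone by an overlap of at least 1 bp on the same strand, and shifts and widths were computed where exactly 1 cluster overlapped. Reference bases came from RefSeq promoters (GRCm38) and GENCODE transcripts, and RefSeq promoters were matched for 85.5% of genes in pairs and 81.5% of the others on the chromosomes the table holds. Computations used Python (3.11.15), NumPy (2.4.6), SciPy (1.17.1) and Matplotlib (3.10.9) and were tested on simulated clusters. The members and lists were chosen with earlier results of these data known. The pairs named are the textbook list, the 5 closest, 5 most distant and 3 just outside the limit, the 5 widest and 5 narrowest, the 10 that changed most in the same direction in both clones, those with a cluster absent from a clone, and the first 4 members of each gene list by alphabet. Some pairs that this rule names are not reported here. Other genes of the ribosomal list were named after their values were seen, as examples of uneven pairs. Alternatives were other windows, distance limits, annotated starts, cluster positions, width filters and overlaps.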

Additional observations from a re-analysis of the deposited data

How the results depend on the processing

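Of 109 values computed under alternatives, 92 stayed within the interval or within 1.5 times the count reported and 17 moved. With a window of 100 bp around the annotated start there were 522 cluster pairs and 405 gene pairs, the median distance was 179.5 bp, and the median widths were 30 bp in members and 25 bp in other coding starts. Keeping the closest cluster pair of each gene pair gave 667 cluster pairs, a median distance of 160 bp and a member width of 30 bp. The median distance was 254 bp with a window of 1000 bp, 206 bp with a limit of 500 bp, 251 bp with a limit of 2000 bp and 261 bp with the start of any transcript. The width of the other coding starts was 21 bp with the start of any transcript and 25 bp with clusters of at least 3 bp. The share of other coding starts with the same TSS in A1 was 80.9% with the 100 bp window and 78.3% with any transcript, and in C7 it was 82.6% with the 100 bp window. The causes were not tested. The share of members with the same TSS stayed between 79.5% and 80.6% in A1 and between 81.5% and 83.6% in C7. Leaving out the mitochondrial genome, chosen after seeing the data, left 1323 cluster pairs and 666 gene pairs. No paired analysis was possible because the replicates of each line were merged before clusters were called, and for the same reason no replicate could be left out. Depth per cluster is unknown, which limits what the absence of a cluster from a clone can show.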
